A study of Mus musculus with 384 samples.

Results

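Myoepithelial cells are the contractile cells of the basal layer of the mammary gland, which squeeze milk out of the alveoli. Described here are 10 genes that carry this function, chosen by symbol from a list of contractile genes and followed through every group of cells in the study. They are the smooth muscle actins Acta2 and Actg2, the thin-filament proteins Tpm2, Tagln, Cnn1 and Lmod1, the myosin genes Myh11 and Myl9, the kinase gene Mylk and the oxytocin receptor gene Oxtr. All 10 of the 49585 genes in the table were found, and all 10 were among the 11106 genes measured at a mean of at least 5 counts per 1000000 reads (CPM) over the 5 groups of single cells.

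In this cell type oxytocin binds its receptor Oxtr and raises calcium inside the cell. Calcium bound to calmodulin switches on the myosin light chain kinase Mylk, which phosphorylates the regulatory light chain Myl9, and the heavy chain Myh11 then pulls on filaments of smooth muscle actin. Tropomyosin (Tpm2), calponin (Cnn1), transgelin (Tagln) and leiomodin (Lmod1) sit on or build those filaments, and luminal cells, which make the milk, are known for lacking this machinery.

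RNA of sorted mouse mammary epithelial cells was sequenced by Smart-seq2, a full-length method that counts reads and not molecules. All cells carried the same transgenes (K8rtta/TetO-DTA/K5CreER/Rosa-Tomato, mixed background). In this design the K8 promoter drives rtTA, so that doxycycline switches on diphtheria toxin A in luminal cells, and the K5 promoter drives CreER, which switches on the Tomato label. Cells were sorted as Tomato+, by CD29 and EpCAM, and as negative for CD140a, CD45 and CD31. The wild-type (WT) glands gave a basal and a luminal group. The ablated glands, which had received 0.2 mg doxycycline by intraductal injection 1 week before sacrifice, gave a basal, a hybrid and a luminal group. The labels record no injection and no doxycycline for WT, and they name no age, no animal, no gate for the hybrid cells and no cell number for the libraries of many cells. Effects of the ablation therefore cannot be told apart from those of the injection, the doxycycline or the animal. The Tomato label in the hybrid group and both luminal groups rests on a K5 driver, whose activity in each cell was not tested. In WT luminal cells Krt5 itself was at 0.830 CPM and was detected in 0 of 43 cells.

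Of 374 single-cell wells 319 were kept. WT glands gave 44 basal and 43 luminal cells, and ablated glands gave 71 basal, 85 hybrid and 76 luminal cells. Their median depths were 978494, 1372880, 677373, 1078730 and 1085300 reads in genes, in that order. Each group also had 1 library of many cells, and 5 wells were negative controls holding 7930 to 13572 reads. With no animal named, every group is 1 sample. No test was run, intervals cover counting or the sampling of cells only, and how far animals differ is unknown. A level in CPM pools the reads from all cells of its group, and log2 ratios were taken after 10 CPM had been added to both sides. A gene was called higher or lower at a difference of 2-fold or more on that scale, and was detected in a cell at 5 reads after each cell had been thinned to 100000 reads. Counting error, as 95% exact Poisson limits, was at most 1.82% of a level at 100 CPM or more and at most 7.95% at 10 CPM or more.

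The labels were checked against keratins and other markers. Acta2 was detected together with the basal keratin Krt14 in 38 of 44 WT basal, 68 of 71 ablated basal and 82 of 85 hybrid cells. In the WT luminal group this held for 0 of 43 cells, and all 43 held at least 2 of the 4 luminal markers. All 76 ablated luminal cells did so as well, and 41 of them also held at least 2 of the 4 basal markers. Vascular smooth muscle cells and pericytes also carry most of the 10 genes, so 9 of their markers were counted. Abcc9 and Higd1b had 0 reads in every group. Pdgfrb was detected in 1 WT basal and 3 hybrid cells, and Kcnj8 in 2 hybrid cells. Rgs5 was detected in 1 cell of every group but WT luminal. Notch3 was detected in 8 WT luminal, 6 hybrid and 16 ablated luminal cells. The summed level of the 9 markers was 181 CPM in WT basal, 70.8 in WT luminal, 99.5 in ablated basal, 47.9 in hybrid and 56.6 CPM in ablated luminal cells. In the basal groups most of it was Mcam, detected in 9 WT basal and 10 ablated basal cells. At least 2 of the 9 were found in 0 WT, 1 ablated basal, 5 hybrid and 2 ablated luminal cells, and without those cells Acta2 stood at 16285 in place of 16591 CPM in ablated basal and at 8271 in place of 8119 CPM in hybrid cells. The fibroblast marker Pdgfra, which encodes the CD140a antigen sorted against, was at 45.2, 5.74, 75.1, 20.4 and 2.74 CPM in the order above, and Lum at 0 reads in every group. Col1a1 was detected in 1 WT basal, 1 ablated basal and 3 hybrid cells. Col3a1 was detected in 1 cell of each basal group and Dpt in 1 hybrid cell. The part of fibroblasts in the levels of the 10 genes was not tested.

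The smooth muscle actins are close relatives, so the first 90 coding bases are printed to show how far a read can tell them apart, with capitals for bases that differ or have no partner in the other gene.
Acta2: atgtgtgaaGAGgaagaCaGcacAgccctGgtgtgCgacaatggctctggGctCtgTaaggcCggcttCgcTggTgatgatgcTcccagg
Actg2: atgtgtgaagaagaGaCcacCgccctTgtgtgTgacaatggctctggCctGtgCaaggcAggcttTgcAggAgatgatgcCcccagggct
Over the 1131 aligned coding bases of the GENCODE M21 transcripts 84.4% were identical, and the longest identical stretch was 29 bases. No window of 50 coding bases was shared. Across whole transcripts, 0.326% of the 50-base windows of Acta2 were found in other genes, among them the cytoplasmic actin Actg1, and 0% of those of Actg2. For Myh11 the share was 0.340%, with the non-muscle myosins Myh9 and Myh10 among the matches, and for Mylk 0.107%. At this window length the coding parts of both actins are distinct, and the read length is not known here. Of the Tagln exons, 67.9% overlap genes on the opposite strand, Gm48529 and Pcsk7, and of the Mylk exons 6.85%. No source used here states the strand setting of the counting, so reads of Tagln and of these genes cannot be told apart with certainty. Whether reads in the overlap were counted or left out is not known, so the levels of Tagln can err in either direction.

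The factor SRF binds CArG boxes, and smooth muscle genes are known for carrying them near their start. RefSeq promoter windows on GRCm38.p6 were at hand for 7 of the 10 genes (not for Actg2, Tagln and Myh11). Boxes of the strict form, with 6 central bases of A or T, were found within 250 bases before the start of 1 gene, Myl9. With 1 central C or G allowed they were found for 2 genes, Acta2 and Myl9, with 2 boxes each. Of 32851 promoters of the same length 1.47% held the strict and 8.59% the relaxed form. The pattern reads the same on both strands, and the boxes are shown in capitals between 10 bases on either side, because they are the bases this factor contacts.
Acta2, chr19:34255438-34255467, minus strand: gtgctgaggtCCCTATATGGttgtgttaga
Acta2, chr19:34255388-34255417, minus strand: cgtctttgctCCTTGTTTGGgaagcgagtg
Myl9, chr2:156775293-156775322, plus strand: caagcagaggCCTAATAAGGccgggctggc
Myl9, chr2:156775355-156775384, plus strand: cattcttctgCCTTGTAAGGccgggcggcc
The first bases of the boxes lay 84 and 34 bases before the RefSeq start of Acta2, inside its first untranslated exon in GENCODE M21, and 161 and 99 bases before that of Myl9, outside any exon. These matches are letters in a window, and binding was not measured. The other 5 genes with an entry (Tpm2, Cnn1, Lmod1, Mylk and Oxtr) held none of either form in this window.

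**Figure D1:**
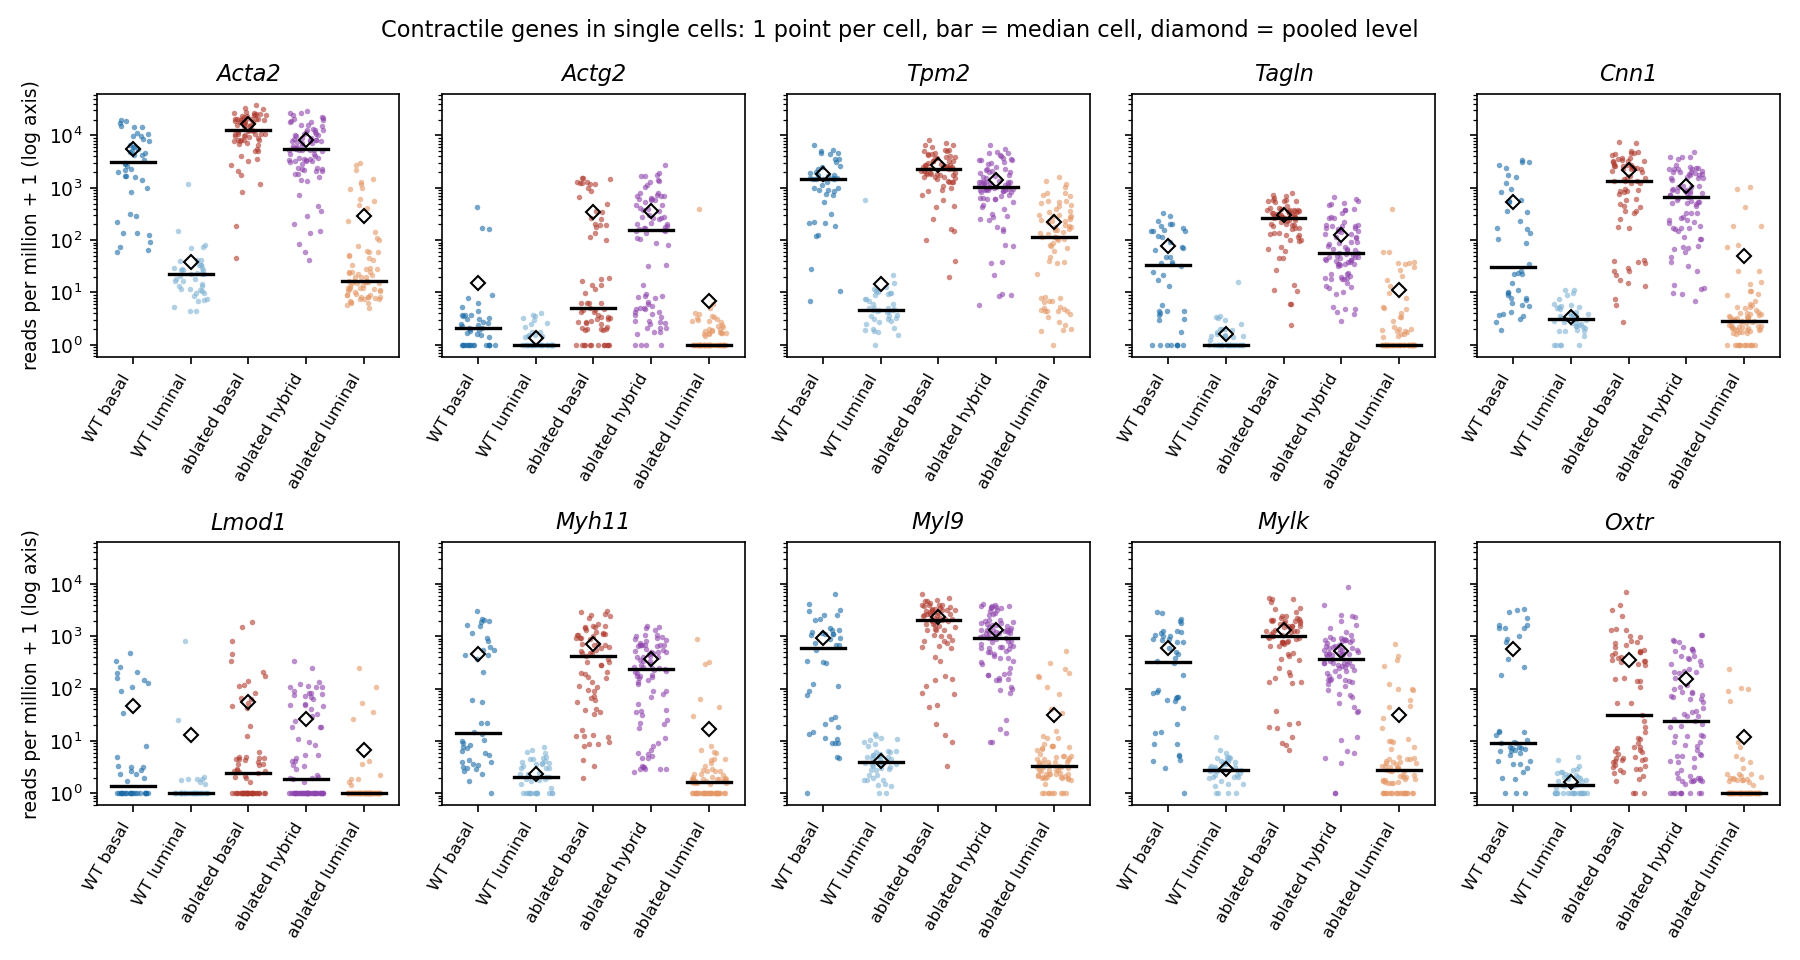
CPM plus 1 on a log axis for each of the 10 genes (panels) in every kept cell of the 5 groups, with the bar at the median cell and the diamond at the pooled level. For Acta2 the median cell stands at 12725 CPM in ablated basal, 5612 in hybrid, 3150 in WT basal, 21.2 in WT luminal and 15.8 CPM in ablated luminal cells, while Actg2 splits the 200 WT basal, ablated basal and hybrid cells into 114 below 10 CPM, 75 above 100 and 11 between.

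Acta2 (ENSMUSG00000035783.8, GRCm38 chromosome 19, 34241090 to 34255590), the actin by which myoepithelial cells are usually stained, was the most abundant of the 10 genes per length in every group. Its pooled level ran from 16591 CPM in ablated basal over 8119 in hybrid and 5422 in WT basal to 288 in ablated luminal and 36.7 CPM in WT luminal cells. Single WT basal cells spanned 57.6 to 19897 CPM around a median of 3150, ablated basal cells 43.9 to 37363 around 12725, and hybrid cells 39.9 to 29035 around 5612. WT luminal cells spanned 3.47 to 1176 CPM around 21.2, and ablated luminal cells 4.07 to 3039 around 15.8. The basal and hybrid groups overlapped across most of their ranges, and the median cell of both luminal groups lay below every cell of these 3 groups. Over plate lines, the lettered lines of wells in which groups lay as blocks, the order had no overlap. The lines gave 13947 to 19374 CPM in ablated basal (5 lines), 6662 to 9685 in hybrid (4), 3239 to 6325 in WT basal (3), 75.2 to 456 in ablated luminal (5) and 20.9 to 46 CPM in WT luminal cells (3). Lines of 1 plate are not replicates, since cells of the same animals can lie in several.

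Acta2 in luminal cells has to be read against background. Negative wells held 17 to 47 reads of it (mean 27.2), against 60.6 reads per WT luminal and 329 per ablated luminal cell. The share of cells detecting it was 23.3% (11.8 to 38.6) among WT luminal and 27.6% (18 to 39.1) among ablated luminal cells, against 98.6% to 100% in the basal groups. In WT luminal cells 44% of the Acta2 reads came from 1 cell. Without it the level was 20.8 CPM.

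Actg2 (ENSMUSG00000059430.14, chromosome 6, 83512905 to 83536265), the actin of visceral smooth muscle, had the largest fold difference of the 10 genes between ablated basal and WT basal cells. It stood at 14.2 CPM in WT basal against 351 in ablated basal and 365 CPM in hybrid cells, which is 24.7-fold between the basal groups. WT basal cells spanned 0 to 434 CPM around a median of 1.08, ablated basal cells 0 to 1562 around 4.01, and hybrid cells 0 to 2759 around 158. The ranges overlapped, and both the share of cells with the gene and its level in the cells rich in it differed. Actg2 was detected in 3 of 44 WT basal cells (6.82%, 1.43 to 18.7), 24 of 71 ablated basal cells (33.8%, 23 to 46) and 50 of 85 hybrid cells (58.8%, 47.6 to 69.4). Cells above 100 CPM of Actg2 had a median of 173 CPM in WT basal (3 cells, 159 to 434), 584 in ablated basal (24 cells, 102 to 1562) and 434 CPM in hybrid (48 cells, 104 to 2759). Of the 44 WT basal cells, 1 gave 47.9% of the group's reads, and without it the level was 7.71 CPM. In the libraries of many cells the gene had 2 reads in WT basal (0.708 CPM), 810 in ablated basal (356 CPM) and 541 in hybrid (219 CPM). In WT luminal cells it was at 0.338 CPM, with 0 of 43 cells (0 to 8.22%) detecting it. In ablated luminal cells it was at 5.75 CPM, with 90.6% of its reads in 1 cell and 0.548 CPM without it.

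Set against Acta2, there were 0.262 Actg2 reads per 100 Acta2 reads in WT basal, 2.11 in ablated basal and 4.49 in hybrid cells. The libraries of many cells gave 0.0105, 1.83 and 3.24. Among cells in which Acta2 was detected, the share with Actg2 was 6.82% for WT basal, 34.3% for ablated basal and 60.2% for hybrid cells. Hybrid cells thus carried less Acta2 than ablated basal cells and a similar level of Actg2, 365 against 351 CPM. Over plate lines Actg2 overlapped between hybrid (281 to 459 CPM) and ablated basal cells (130 to 577 CPM), and both lay above WT basal (0.757 to 25.8 CPM).

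**Figure D2:**
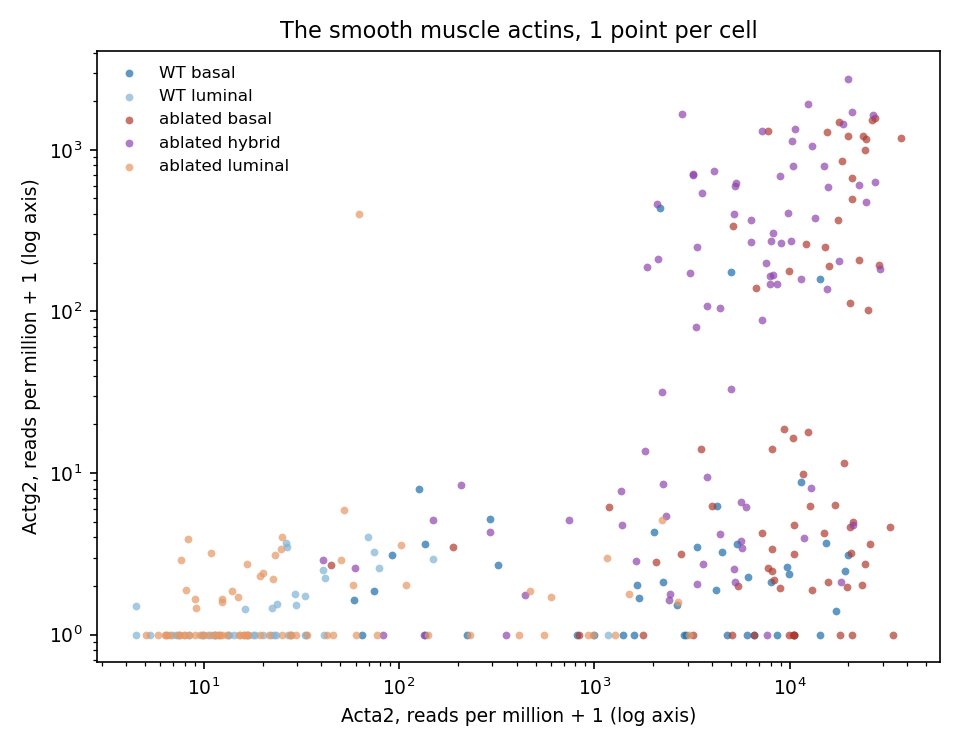
Actg2 against Acta2 in CPM plus 1, both axes log, 1 point per kept cell coloured by group. Above 100 CPM of Actg2 lie 48 hybrid, 24 ablated basal, 3 WT basal and 1 ablated luminal cell, all but the last with more than 1000 CPM of Acta2.

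Tpm2 (ENSMUSG00000028464.16, chromosome 4, 43514711 to 43523765), the beta-tropomyosin that lies along the actin filament, stood at 2744 CPM in ablated basal, 1857 in WT basal, 1426 in hybrid, 226 in ablated luminal and 13.8 CPM in WT luminal cells. WT luminal cells spanned 0 to 582 CPM around a median of 3.71, with 71.4% of the reads in 1 cell (4.02 CPM pooled without it), and ablated luminal cells 0 to 1601 around 114. The median ablated luminal cell thus lay far above the median WT luminal cell, and the ranges overlapped. Tpm2 was detected in 51 of 76 ablated luminal cells (67.1%, 55.4 to 77.5) and in 1 of 43 WT luminal cells (2.33%, 0.0589 to 12.3). Unthinned, 77.6% and 58.1% of cells had 5 or more reads, at median depths of 1085300 and 1372880. Negative wells held 4 to 15 reads of Tpm2 (mean 9.20), against 258 reads per ablated luminal and 22.8 per WT luminal cell.

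Most of these luminal cells had Tpm2 and no other of the 10 genes. Of the 35 ablated luminal cells with exactly 1 of the genes detected, this was Tpm2 in 28, Acta2 in 5 and Myl9 and Mylk in 1 each. Tpm2 without Acta2 was found in 36 of 76 ablated luminal cells (47.4%, 35.8 to 59.2), against 0 of 44 WT basal, 0 of 43 WT luminal, 1 of 71 ablated basal and 0 of 85 hybrid cells. Hardly any cell of the other groups could qualify. Acta2 was detected in 44 of 44 WT basal, 70 of 71 ablated basal and 83 of 85 hybrid cells, and Tpm2 in 1 of 43 WT luminal cells. In the libraries of many cells Tpm2 was at 176 CPM in ablated luminal and 19.9 CPM in WT luminal, and Acta2 at 21.4 and 64.7 CPM. Each of the 5 plate lines with ablated luminal cells held 151 CPM of Tpm2 or more, and each of the 3 with WT luminal cells 22.9 CPM or less.

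The other thin-filament genes stood highest in ablated basal cells. Tagln (ENSMUSG00000032085.5, chromosome 9, 45929619 to 45936058), which encodes the actin-bundling protein transgelin, was at 300 CPM there, 123 in hybrid, 77.9 in WT basal, 10.2 in ablated luminal and 0.633 CPM in WT luminal cells. Without the ablated luminal cell that held 49.3% of its reads there, Tagln was at 5.25 CPM in that group. Its median cell lay at 268 CPM in ablated basal (1.40 to 793), 55.3 in hybrid (1.88 to 661) and 32.6 in WT basal cells (0 to 331). The share of cells with Tagln was 88.7% (79 to 95), 60% (48.8 to 70.5) and 43.2% (28.3 to 59) in that order.

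Cnn1 (ENSMUSG00000001349.5, chromosome 9, 22099216 to 22109630), calponin, which restrains actomyosin and is a classical late smooth muscle marker, was at 2218 CPM in ablated basal, 1104 in hybrid, 524 in WT basal, 48.6 in ablated luminal and 2.38 CPM in WT luminal cells. In ablated luminal cells 40.6% of the Cnn1 reads came from 1 cell, and the level was 29.4 CPM without it. Median cells lay at 1362 CPM in ablated basal (1.69 to 7524), 663 in hybrid (5.81 to 4882) and 29.9 in WT basal cells (0.956 to 3321). WT basal cells were split, with 22 of 44 detecting the gene, against 59 of 71 ablated basal and 77 of 85 hybrid cells. Cnn1 also lay higher in ablated basal than in WT basal in the libraries of many cells, by 0.85 on the log2 scale, which is less than 2-fold.

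Lmod1 (ENSMUSG00000048096.7, chromosome 1, 135324807 to 135368065), which starts new actin filaments, was sparse throughout. It was at 55.5 CPM in ablated basal, 46.3 in WT basal, 24.9 in hybrid, 11.8 in WT luminal and 5.67 CPM in ablated luminal cells, and was detected in 22.7%, 15.5% and 16.5% of WT basal, ablated basal and hybrid cells. Of its WT luminal reads 94.9% lay in 1 cell, without which the level was 0.614 CPM. The libraries of many cells held 153 reads of it in WT basal, 13 in ablated basal, 133 in hybrid and 0 in both luminal ones. Neighbouring groups in its order overlapped over plate lines, from 0.581 to 83.8 CPM in ablated basal cells alone.

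Myh11 (ENSMUSG00000018830.8, chromosome 16, 14194535 to 14291372), the smooth muscle myosin heavy chain, was at 721 CPM in ablated basal, 452 in WT basal, 374 in hybrid, 16.3 in ablated luminal and 1.29 CPM in WT luminal cells. Without the ablated luminal cell that held 44.8% of its reads there, the level in that group was 9.04 CPM. The median cell showed a wider gap than the pooled level, with 421 CPM in ablated basal (0.949 to 3102), 234 in hybrid (1.59 to 1553) and 13.5 in WT basal cells (0 to 3042). It was detected in 76.1%, 70.6% and 43.2% of these cells. The highest cells of both basal groups were close, and the share of cells with the gene was lower in WT.

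Myl9 (ENSMUSG00000067818.6, chromosome 2, 156775420 to 156781658), the light chain that Mylk phosphorylates, was at 2382 CPM in ablated basal, 1301 in hybrid, 920 in WT basal, 30.1 in ablated luminal and 3.22 CPM in WT luminal cells. Single cells spanned 2.33 to 6441 CPM around 2043 in ablated basal, 8.55 to 4114 around 946 in hybrid and 0 to 6469 around 608 in WT basal cells. Mylk (ENSMUSG00000022836.10, chromosome 16, 34745210 to 35002420) was at 1323, 522 and 585 CPM in these groups, 30.9 in ablated luminal and 1.91 CPM in WT luminal cells. Both genes overlapped between the 3 groups across most of their ranges, and neither was detected in any of the 43 WT luminal cells. Myl9 was found in 8 and Mylk in 10 of 76 ablated luminal cells.

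Oxtr (ENSMUSG00000049112.9, chromosome 6, 112473683 to 112489943), the receptor through which suckling triggers contraction, was the only one of the 10 genes highest in WT basal cells. It was at 570 CPM there, 350 in ablated basal, 150 in hybrid, 11 in ablated luminal and 0.647 CPM in WT luminal cells. WT basal cells spanned 0 to 3361 CPM around a median of 8.27, ablated basal cells 0 to 7001 around 29.8, and hybrid cells 0 to 1043 around 23.4. The order of the median cells thus differed from that of the pooled levels. It was detected in 34.1% (20.5 to 49.9) of WT basal, 47.9% (35.9 to 60.1) of ablated basal and 43.5% (32.8 to 54.7) of hybrid cells, and 1 WT basal cell gave 23.5% of that group's reads. In ablated luminal cells 58.8% of the Oxtr reads came from 1 cell, and the level was 4.65 CPM without it. The libraries of many cells placed it at 242 CPM in WT basal, 118 in hybrid, 79.7 in ablated luminal, 26.8 in ablated basal and 3.98 CPM in WT luminal, so that hybrid lay above ablated basal there and below it in single cells.

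Per kilobase of merged exons, the only scale on which different genes are compared here, Acta2 led in WT basal cells with 2469 CPM per kb, before Myl9 (792), Tpm2 (638), Cnn1 (192) and Oxtr (119). Actg2 came last with 9.13 CPM per kb. In ablated basal and hybrid cells the leading 4 were again Acta2, Myl9, Tpm2 and Cnn1, followed by Actg2 with 225 and 234 CPM per kb. In both luminal groups Acta2 and Tpm2 led, at 16.7 and 4.74 CPM per kb in WT and 131 and 77.5 CPM per kb in ablated glands. The place of Tpm2 in WT luminal cells rests on 1 cell, which held 71.4% of its reads there. Together the 10 genes took 1.05% of all gene reads in WT basal, 2.70% in ablated basal, 1.35% in hybrid, 0.0672% in ablated luminal and 0.00727% in WT luminal cells.

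Within a cell the genes were counted at equal depth. The median cell held 5 of the 10 genes in WT basal (interval 5 to 6), 8 in ablated basal (7 to 8), 7 in hybrid (7 to 8), 1 in ablated luminal and 0 in WT luminal cells. At 1 read the WT basal median was 8, and without thinning 7, while that of ablated basal stayed within 7 to 8. The gap between the basal groups thus depended on the detection limit and the thinning. At least 7 genes were found in 25% (13.2 to 40.3) of WT basal, 74.6% (62.9 to 84.2) of ablated basal and 71.8% (61 to 81) of hybrid cells, and in 0 luminal cells of either kind. Cells with none of the genes numbered 32 of 43 in WT luminal and 16 of 76 in ablated luminal. The kinase, the light chain and the heavy chain were detected in the same cell in 34.1% (20.5 to 49.9) of WT basal, 66.2% (54 to 77) of ablated basal, 65.9% (54.8 to 75.8) of hybrid and 2.63% (0.320 to 9.18) of ablated luminal cells. With the receptor as a further condition these shares were 11.4%, 29.6%, 30.6% and 0%.

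**Figure D3:**
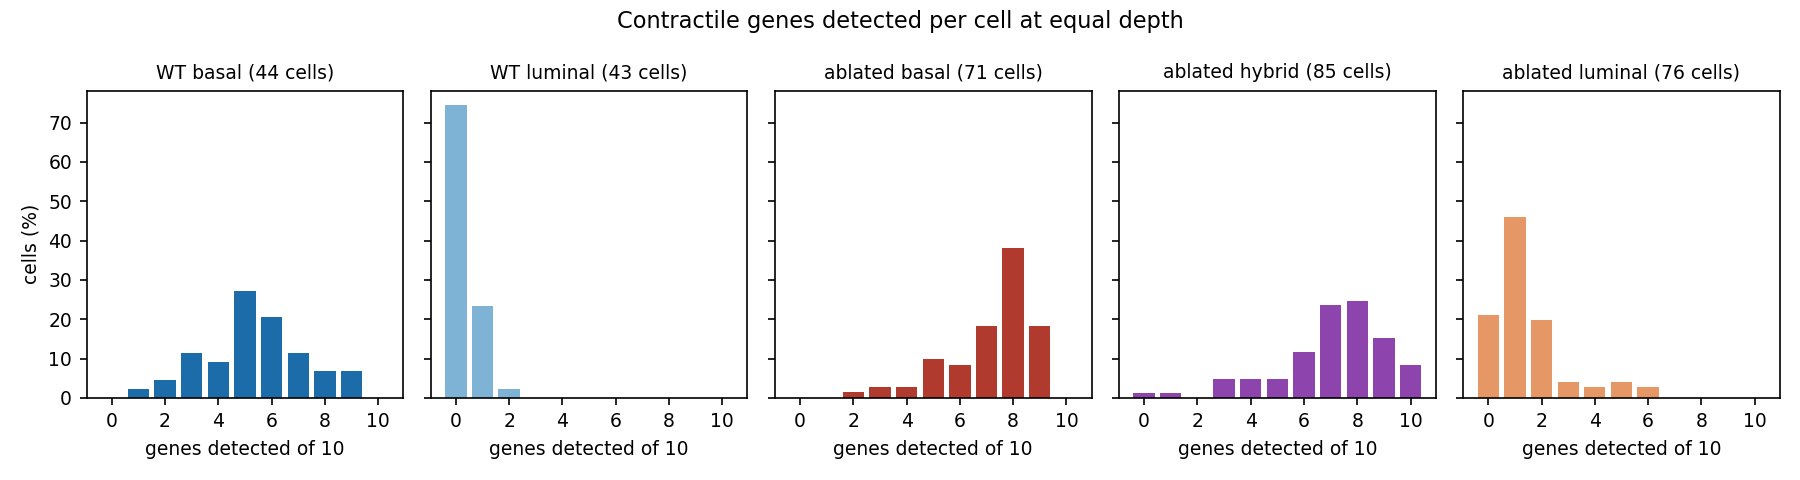
Share of cells in percent by the number of the 10 genes detected, after thinning each cell to 100000 reads, in 1 panel per group. The bars peak at high counts in ablated basal and hybrid cells (medians 8 and 7), in the middle in WT basal cells (median 5) and at 0 or 1 in the luminal groups.

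Luminal set against basal cells of WT glands gives the lineage difference in glands without recorded injection. All 10 genes were lower in luminal cells by 2-fold or more, with a median log2 ratio of -5.54 (range -6.86 to -1.23). Over all measured genes 21.3% were called lower and 22.3% higher, and the median was 0.01. The weakest were Actg2 and Lmod1 at -1.23 and -1.37, both low in WT basal cells. Of the summed levels of the 10 genes, 36 of 43 WT luminal cells lay below the lowest WT basal cell. On the plate line that held both groups the sums were 10939 CPM over 10 basal and 76.7 CPM over 11 luminal ones. Actg2 rests on 1 WT basal cell here, being at -0.78 without it, and was at 0.04 in the libraries of many cells.

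Basal cells of ablated glands were then set against WT basal cells, the comparison that follows the ablation within the basal lineage. Of the 10 genes 6 were called higher (Acta2, Actg2, Tagln, Cnn1, Myl9 and Mylk) and 0 lower, with a median log2 ratio of 1.26. Over all measured genes 19.8% were called higher and 14.9% lower, with a median of 0.05. Actg2 led at 3.90, followed by Cnn1 at 2.06, Tagln at 1.82, Acta2 at 1.61, Myl9 at 1.36 and Mylk at 1.16. Tpm2 (0.56), Myh11 (0.66), Lmod1 (0.22) and Oxtr (-0.69) stayed within 2-fold. In the libraries of many cells Oxtr and Lmod1 were lower in ablated basal, by -2.78 and -2.03, and Tpm2 and Myh11 were higher by 1.31 and 2.07. There Cnn1 (0.85) and Tagln (1.00, just under the limit) were not called. Of the ablated basal cells 14 of 71 lay above every WT basal cell in the summed level, and 39 of 44 WT basal cells lay below the ablated basal median. The plate line with both groups gave 7395 CPM in 13 WT and 28625.5 CPM in 9 ablated cells. On it Myh11 was at 551 and 511 CPM and Lmod1 at 26 and 8.34 CPM in WT and ablated cells, so that both turned direction.

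Luminal cells of ablated glands were set against WT luminal cells. Here 6 genes were called higher (Tpm2, Acta2, Cnn1, Mylk, Myl9 and Myh11) and 0 lower, with a median log2 ratio of 1.41. Over all measured genes 15.3% were called higher and 6.61% lower, with a median of 0.21. Basal markers moved with these genes, their summed level being 125 CPM in WT and 6018 CPM in ablated luminal cells. Krt14 was detected in 1 of 43 and 49 of 76 cells and Krt5 in 0 and 19, and their part in the levels of the contractile genes was not tested. Tpm2 stood first at 3.31, before Acta2 at 2.67 and Cnn1 at 2.24. The share of higher among all called genes was 69.8%, and 54.9% or 51.8% under TMM or median-of-ratios scaling, which brought the median of all genes to 0.03 and 0, and the count of 6 stood under both. Apart from Tpm2 and Acta2, each called gene was detected in at most 10 of the 76 ablated luminal cells, and the median cell of Acta2 was lower in ablated (15.8 CPM) than in WT glands (21.2 CPM). Only 12 of 76 ablated luminal cells lay above every WT luminal cell in the summed level. Still, 40 of 43 WT luminal cells lay below the ablated luminal median, and 8 of 76 ablated luminal cells below the WT luminal one. The richest 3 ablated luminal cells gave 18.8%, 13.5% and 6.58% of the group's reads of the 10 genes. Without the cell holding most reads Myh11 was at 0.76 and no longer called. The libraries of many cells gave the same direction for 2 genes, Tpm2 (2.64) and Oxtr (2.68), and the other way for Acta2 (-1.25), Myl9 (-1.06), Mylk (-0.27) and Cnn1 (-0.25), on 7 to 75 reads in ablated luminal. Actg2, Tagln, Myh11 and Lmod1 had 0 to 2 reads there.

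Hybrid cells were finally placed between the other ablated groups. Against ablated basal cells 5 of the 10 genes were called lower (Mylk, Tagln, Oxtr, Acta2 and Cnn1) and 0 higher, with a median log2 ratio of -0.97. Over all measured genes 8.87% were called lower and 16% higher, with a median of 0.14. Of the 10 genes 9 lay between -1.32 and -0.87, close to the 2-fold limit on either side, and Actg2 was at 0.05. For this reason the count moved to 9 lower under TMM or median-of-ratios scaling and to 3 without the cells with pericyte markers. The share of higher among all called genes moved from 64.4% to 51.8% and 49.9% under these scalings. Of the hybrid cells 70 of 85 lay below the ablated basal median of the summed level, and 4 below its range. In the libraries of many cells Oxtr (1.80) and Lmod1 (2.02) were higher in hybrid, and 6 of the other genes were lower by 2-fold or more. The share of all measured genes called in these libraries was not counted, so these calls have no background to be set against.

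Against ablated luminal cells all 10 genes were called higher in hybrid cells, with a median log2 ratio of 3.79 (range 1.16 to 5.03). Over all measured genes 6% were called higher and 4.19% lower, with a median of -0.01. Myl9 led at 5.03, Acta2 stood at 4.77 and Actg2 at 4.57, and Tpm2, which ablated luminal cells also held, at 2.61. The directions were the same for all 10 genes in the libraries of many cells. On the plate line with both groups the sums were 14812 CPM in 17 hybrid and 690 CPM in 4 luminal cells. These last comparisons share the hybrid cells, and those on ablated basal cells share that group.

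**Figure D4:**
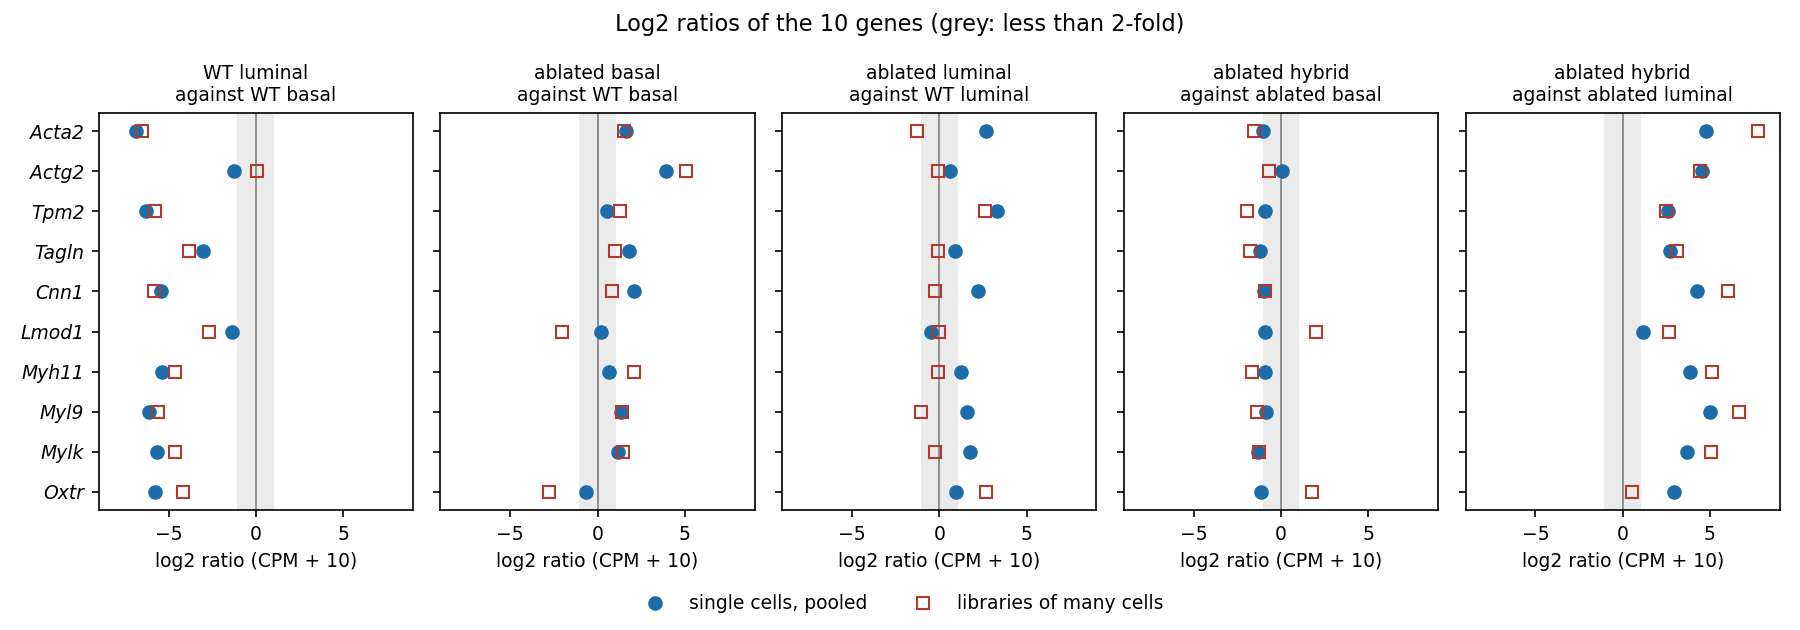
Log2 ratios (CPM plus 10) of the 10 genes in the 5 comparisons, with filled circles for pooled single cells, open squares for libraries of many cells and grey for differences under 2-fold. The circles lie at or left of -1.23 for WT luminal against WT basal and at or right of 1.16 for hybrid against ablated luminal, and the squares leave the circles most for Oxtr, Lmod1 and the ablated luminal against WT luminal panel.

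Hybrid cells carried the contractile genes together with luminal keratins. Acta2 was detected with Krt18 in 81 of 85 hybrid cells (95.3%, 88.4 to 98.7) and with Krt19 in 69 (81.2%, 71.2 to 88.8). Basal groups shared part of this, since Krt18 accompanied Acta2 in 43.7% (ablated, 31 of 71) and 50% (WT, 22 of 44). Krt8 accompanied Acta2 in 94.1% of hybrid cells, against 59.2% in the ablated basal group and 68.2% in the WT one. With Krt19, which marks luminal cells more strictly, Acta2 was detected in 9 of 71 cells in ablated basal and 3 of 44 in WT basal. Actg2 was found with Krt19 in 39 of 85 hybrid cells (45.9%, 35 to 57), in 2 of 71 ablated basal and in 0 of 44 WT basal cells. Oxtr was found with Krt19 in 27 of 85 hybrid cells. A well with a basal and a luminal cell would show both kinds of gene, no caller of such wells was run, and their part was not tested. In the library of many hybrid cells, which mixes cells in any case, Acta2 was at 6752 CPM. Among ablated luminal cells Krt14 was detected in 49 of 76, of which 14 also held Acta2 and 35 did not.

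From cell to cell the genes moved together to different degrees. Spearman correlations of log2(CPM + 10) over the 45 pairs of genes had a median of 0.26 in WT basal (44 cells), 0.34 in WT luminal (43), 0.25 in ablated basal (71), 0.45 in hybrid (85) and 0.16 in ablated luminal cells (76). All 45 pairs were above 0 in hybrid and in WT luminal cells, where Acta2 and Myl9 were the strongest pair at 0.80 and 0.81. The same pair was strongest in ablated basal cells at 0.66. In ablated luminal cells the strongest pair was Cnn1 and Myl9 at 0.44, and Tpm2 and Actg2 were at -0.19. Lmod1 was in the weakest pair of 4 of the 5 groups. Cells of a group share a plate block and differ in depth, and in WT luminal cells most values lie near the background, so these are descriptions.

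**Figure D5:**
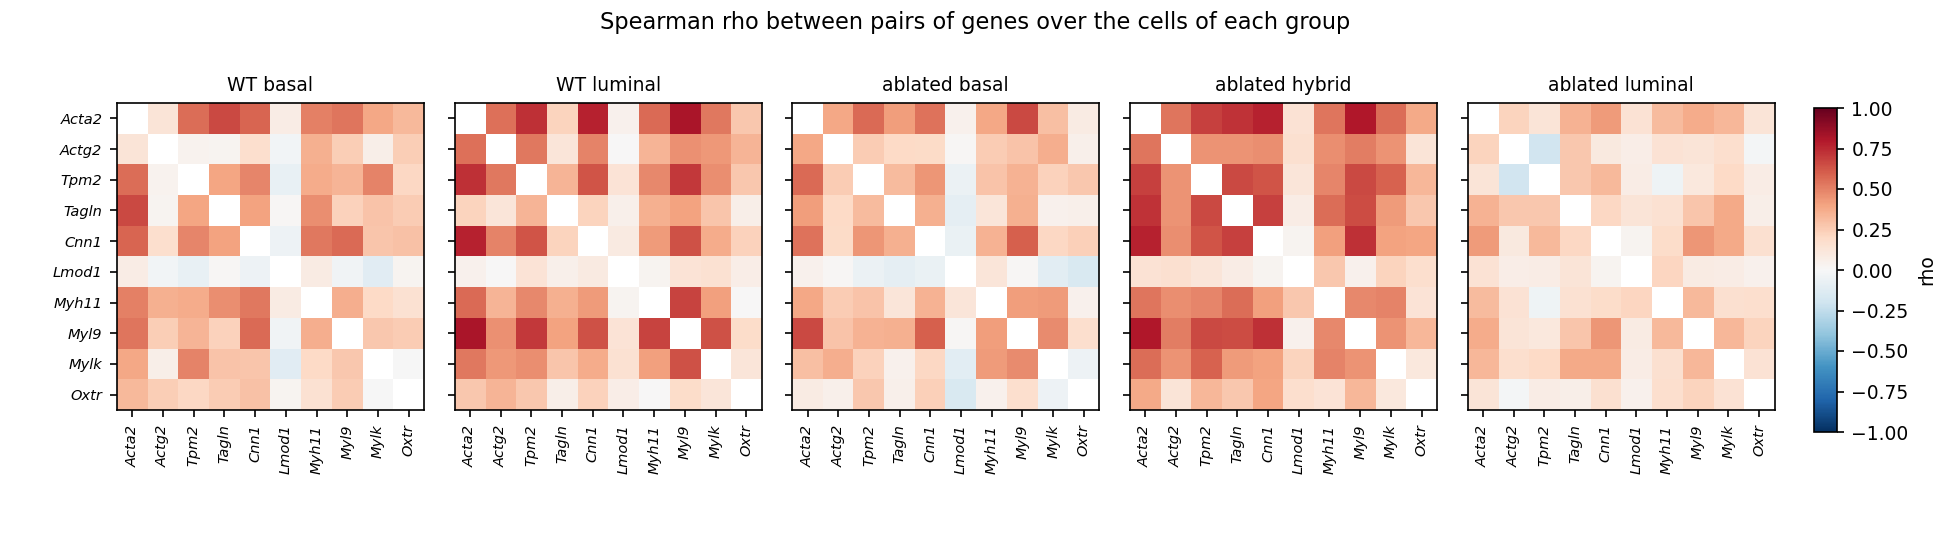
Spearman rho for every pair of the 10 genes over the cells of each group, from blue (-1) over white (0) to red (1), with the diagonal left blank. The hybrid panel is the reddest of the basal-type groups (median 0.45), Lmod1 is pale in all panels, and the ablated luminal panel is pale throughout (median 0.16).

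The 10 further genes most like the set were taken as those with the highest mean, over the 5 groups, of the within-group rho with the mean of the 10 genes, out of 4817 genes. These were Sparc (0.42), a matrix glycoprotein, Flna (0.40), which crosslinks actin, Fblim1 (0.39), which links filamin to adhesions, Postn (0.38), a matrix protein, and Tgfb1i1 (0.37), an adhesion adaptor. Csrp1 (0.36), a LIM protein of smooth muscle, Cnn2 (0.36), a calponin outside muscle, Cald1 (0.35), the thin-filament protein caldesmon, Perp (0.33), a desmosome protein, and Cdh3 (0.32), the basal cadherin, followed. Sparc stood at 6605 CPM in ablated basal, 3171 in hybrid, 1340 in WT basal, 353 in ablated luminal and 8.06 CPM in WT luminal cells, an order shared with Acta2. The mean rho hides differences between groups. In WT basal cells it was 0.14 for Sparc and Postn and 0.19 for Cdh3, against 0.70, 0.45 and 0.55 in WT luminal cells. Most values of the 10 genes lie near background in WT luminal cells. Csrp1, Perp and Tgfb1i1 went the other way, at 0.54 each in WT basal and 0.08, 0.09 and 0.41 in WT luminal cells.

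Other genes of contraction were counted from a list of 56, of which 48 were measured. In WT luminal against WT basal cells 18 were called lower and 4 higher (21.3% and 22.3% over all measured genes), led by the actin-binding Smtn (-4.02), Cald1 (-3.76), the LIM protein Pdlim7 (-3.43) and the calcium sensor Stim1 (-3.40, but 0.15 in the libraries of many cells). In ablated basal against WT basal cells 14 were higher and 3 lower, where 19.8% and 14.9% of all measured genes were. The 4 largest ratios included the endothelin receptor Ednra (2.43), the G protein Gna11 (2.02) and the phospholipase Plcb3 (1.67). Their WT basal levels were low, 0.173 CPM for Ednra, 2.51 for Plcb3 and 20.5 CPM for Gna11, with 0, 0 and 2 of 44 cells detecting them against 6, 5 and 14 of 71 ablated basal cells, and Des (1.76), a muscle filament, rested on 1 cell.

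In ablated luminal against WT luminal cells 14 of the 48 were higher and 1 lower, where 15.3% and 6.61% of all measured genes were. Ednra (2.39) was detected in 15 of 76 and 0 of 43 cells, Cald1 (2.14) in 54 and 6, Pdlim7 (2.09) in 35 and 3, and Stim1 (1.84) in 23 and 2. In the libraries of many cells Stim1 turned to -2.31. Cald1, which like Tpm2 binds along the thin filament, stood at 260 CPM in ablated and 51.3 CPM in WT luminal cells. In hybrid against ablated basal cells 4 were higher and 3 lower, no more than the 16% and 8.87% of all measured genes. The calcium channel Orai1 was at 34.1 against 1.20 CPM (1.98) and the calcium release channel Itpr3 at 34.8 against 4.48 CPM (1.63), Stim1 was lower (-1.66), and Des (-1.77) had 0 reads in hybrid cells. In hybrid against ablated luminal cells 7 were higher and 0 lower, where 6% and 4.19% of all measured genes were, led by Flna (1.65), Cnn2 (1.56), the LIM protein Pdlim3 (1.46) and Smtn (1.25). On the plate line with both groups Cnn2 turned to -0.55.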

How the data were processed

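The authors deposited raw read counts per gene and well, with no normalization, in a table of 49585 genes and 92 spike-in rows, the latter not used. Tools listed in the submitters' processing notes, with no role, are STAR 2.5.2b, cutadapt 1.13, Seurat and HTSeq 0.6.0, beside the build GRCm38. The annotation version and the strand setting are not given in the sources used here. Symbols and positions come from GENCODE M21, which held 49326 of the identifiers.

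Groups follow the labels. Kept wells reached 100000 reads in genes and 1000 detected genes, with a mitochondrial share no higher than 20%, so that 47 wells with too few reads and 8 with a high mitochondrial share were left out. Kept cells held 118310 to 3835005 reads, and 3 reads in a group equal 0.0650, 0.0422, 0.0509, 0.0313 and 0.0345 CPM in the order WT basal, WT luminal, ablated basal, hybrid and ablated luminal. Doublets were not called, and 0 pairs of wells had identical columns. Reads carry no molecular identifiers, so the exact Poisson intervals of levels and Clopper-Pearson intervals of shares (both 95%) cover counting error or the sampling of cells only. Intervals of medians are order statistics over cells.

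The 10 genes and all lists were chosen with earlier results of these data known. Besides them, the text names up to 4 genes a comparison with the largest ratio among called genes of the contraction list, the 10 genes most like the set (symbol without Gm or Rik, detected in at least 25% of cells of a group) and the cell type markers. Those lists cover basal, luminal, pericyte, fibroblast, endothelial and immune cells. Endothelial markers summed to at most 7.30 CPM and immune markers to at most 14.4 CPM in a group. Alternatives changed the cell filters, weighting, scaling, added CPM, detection and thinning, left out the cell with most reads, used the libraries of many cells or subtracted reads of negative wells. Values within 1 plate line and without cells with 2 pericyte markers were added after seeing the data. The ratio step was tested on simulated data. Python 3.11.15, numpy 2.4.6, pandas 2.3.3, scipy 1.17.1 and R 4.3.3 with edgeR 4.0.16 (TMM factors only) were used.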

Additional observations from a re-analysis of the deposited data

Results flagged for a closer look

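Among the reads of the 10 genes in the 5 negative control wells, Tagln had 1 read in 1 well and 0 in the other 4, which sets that well apart from the rest. The rule sets the gap to the nearest well against the range of the wells, so a single read in 1 well is always flagged. Nothing can be concluded from this flag, and 10 genes were looked at.

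The log2 ratio after ablation differed in sign between basal and luminal cells for 2 genes, and the difference was not tested. For Lmod1 the ratio in basal cells minus that in luminal cells was 0.69, from 0.22 and -0.48, and in luminal cells it rests on 1 WT cell, the luminal ratio being 0.30 without the richest cell of each group. For Oxtr it was -1.67, from -0.69 in basal and 0.98 in luminal cells, where 1 ablated luminal cell holds 58.8% of the reads. Without the richest cell of each group the ratios were -0.47 and 0.47.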

How the results depend on the processing

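The libraries of many cells turned more directions than any other alternative run. In ablated luminal against WT luminal they turned the median log2 ratio to -0.05689, with Acta2 at -1.25, Cnn1 at -0.25, Myh11 at -0.05689, Myl9 at -1.06, Mylk at -0.27 and Stim1 at -2.31. They also turned Actg2 (0.03809) and Stim1 (0.15) in WT luminal against WT basal and Oxtr (1.80) in hybrid against ablated basal, where the median moved to -1.31. The cause was not tested. With 1 CPM added in place of 10 the median was -7.225 in WT luminal against WT basal and 2.90 in ablated luminal against WT luminal, since low levels then count for more. Within 1 plate line Lmod1 (-0.97), Myh11 (-0.11) and Des (-0.0332) turned in ablated basal against WT basal and Cnn2 (-0.55) in hybrid against ablated luminal, and the cause was not tested. No line held both groups of ablated luminal against WT luminal or of hybrid against ablated basal. The median number of genes per cell was 8 (WT basal), 2 (WT luminal), 9 (hybrid) and 3 (ablated luminal) at 1 read, 6 (hybrid) and 0 (ablated luminal) at 20 reads, and 7 (WT basal), 2 (WT luminal) and 2 (ablated luminal) without thinning. The ablated basal median stayed within 7 to 8 in these settings. Its gap to WT basal cells was thus narrowed or lost at 1 read and without thinning. Under every other alternative run, the 5 medians of the ratios kept their direction and lay within their order-statistic intervals over the 10 genes. Background limits the luminal groups, where reads of several genes per WT cell were close to those per negative well (5.33 and 5.20 for Myl9).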

Other observations

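At the other end of the ranking of genes by likeness to the set, the lowest mean rho with the 10 genes was that of Zfand5 (-0.23), followed by Tsr2 (-0.22), the tight-junction gene Cldn4 (-0.22), the stress-response factor Atf4 (-0.21), Errfi1 (-0.21) and the endoplasmic reticulum chaperone Hspa5 (-0.21). They were chosen after their values were seen, and depth and cell quality differ between cells as well.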
